A study of Mus musculus with 14 samples.

Results

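Neutrophil granule and maturation genes were followed as a set of 40 genes among the 55335 genes of the deposited count table, across all 14 libraries. The genes were chosen by name and read in stages, to set early beside late granulopoiesis: 6 genes of the primary granule stage, 9 of the secondary granule stage, 14 of the late stage, 4 of the phagocyte oxidase, 4 transcription factors and 3 genes shared with other myeloid cells. The RNA came from bone marrow of mice with the genotype Cdh5 CRE Rosa26 TdTomato, in which Cre expressed from the promoter of Cdh5 (VE-cadherin) switches on a red fluorescent protein. The sort kept TdTomato-positive cells that lacked lineage markers and CD45. Untreated mice gave 4 libraries. Total body irradiation (TBI) with 500 cGy from a caesium source gave 5 libraries, with replicate numbers 1, 3, 4, 5 and 6. Radioimmunotherapy (RIT), in which an antibody carries a radionuclide, gave 3 libraries after 20 µCi of a non-targeted IgG and 2 libraries after 20 µCi of an antibody to CD45, a surface protein of nucleated blood cells. Treated mice were harvested 8 days after treatment. Reporter genotype and sort are shared by every group, controls included. The labels do not say whether Cre was inducible, how many mice made a library, or the age and sex of the mice. As background, Cre under this promoter also marks blood cells that descend from hemogenic endothelium where it is active in the embryo.

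Totals ran from 16412779 counts in TBI replicate 6 to 31077588 in untreated replicate 1. All levels are counts per 1000000 (CPM) of a library size scaled by edgeR's TMM factors. A floor of 3 counts stands at 0.0785 to 0.215 CPM, so a gene without counts may have been present below it. Cdh5 was at most 0.208 CPM in untreated and TBI libraries and had no counts in the RIT libraries, and 10 endothelial markers together made 117 to 159 CPM in untreated libraries and 66.1 to 218 CPM in treated ones. A list of 9 erythroid markers summed to 9174 to 14729 CPM in untreated libraries, 28430 to 43651 CPM in 4 TBI libraries, 219897 CPM in TBI replicate 6, 165006 to 187640 CPM after IgG RIT, and 278787 and 62046 CPM in CD45 RIT replicates 1 and 2. These 2 CD45 RIT libraries resembled each other less (correlation of log2 CPM across genes 0.673) than any other pair within a group (0.906 or higher). Library numbers in the labels ran from 1 to 10 for untreated and TBI libraries and from 11 to 16 for RIT, so that number order and RIT cannot be told apart. In sorted pools, fewer cells of a type and less RNA per cell cannot be told apart either.

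Neutrophils are made in the bone marrow through granulocyte-monocyte progenitors, promyelocytes, myelocytes, metamyelocytes and band cells. Primary (azurophil) granules, loaded with myeloperoxidase and serine proteases, form in promyelocytes, and transcription of their cargo then stops. Secondary (specific) granules with lactoferrin and cathelicidin form in myelocytes, gelatinase granules follow, and receptors and cytosolic proteins of the mature cell come last. PU.1 and C/EBPα act early in this series, C/EBPε and GFI1 around the step to secondary granules. A transcript pattern of primary without secondary cargo is therefore typical of promyelocytes and their precursors, and the reverse pattern of later cells.

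Untreated libraries held primary granule transcripts at high level and secondary granule transcripts at very low level. These levels describe cells that lacked lineage markers and CD45 by the sort, not the whole marrow. The part of the sort in the low secondary level was not tested. The 40 genes took 1.36% ± 0.132 (SD, n = 4) of all counts, and Mpo alone took 0.902% ± 0.0896. Summed levels were 9975 ± 819 CPM for the 6 primary genes, 44 ± 14.1 CPM for the 9 secondary genes and 586 ± 15.1 CPM for the 14 late genes (SD, n = 4). Primary genes thus made 87.2% to 89% of the members' summed level in the 4 libraries, and secondary genes 0.293% to 0.61%. Per kilobase of gene length, the order in untreated mice was Mpo (2194 ± 167 CPM per kb), Elane (1124 ± 118), Ctsg (557 ± 91.5), Prtn3 (247 ± 34.3), Cyba (162 ± 22.3) and Ms4a3 (100 ± 10.9), and no library of any of these genes overlapped the next gene in the order. Anxa1 (75.6 ± 4.69 CPM per kb), Serpinb1a (71.6 ± 12.5), Alox5ap, Lyz2, Fcgr3, Spi1 and Hk3 followed with overlapping ranges. At the low end stood Ltf (0.63 ± 1.25 CPM per kb), Cd177, Chil3, Mmp9, Ly6g, Fpr2 and Fpr1, all with at least 3 untreated libraries under 0.4 CPM.

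**Figure D1:**
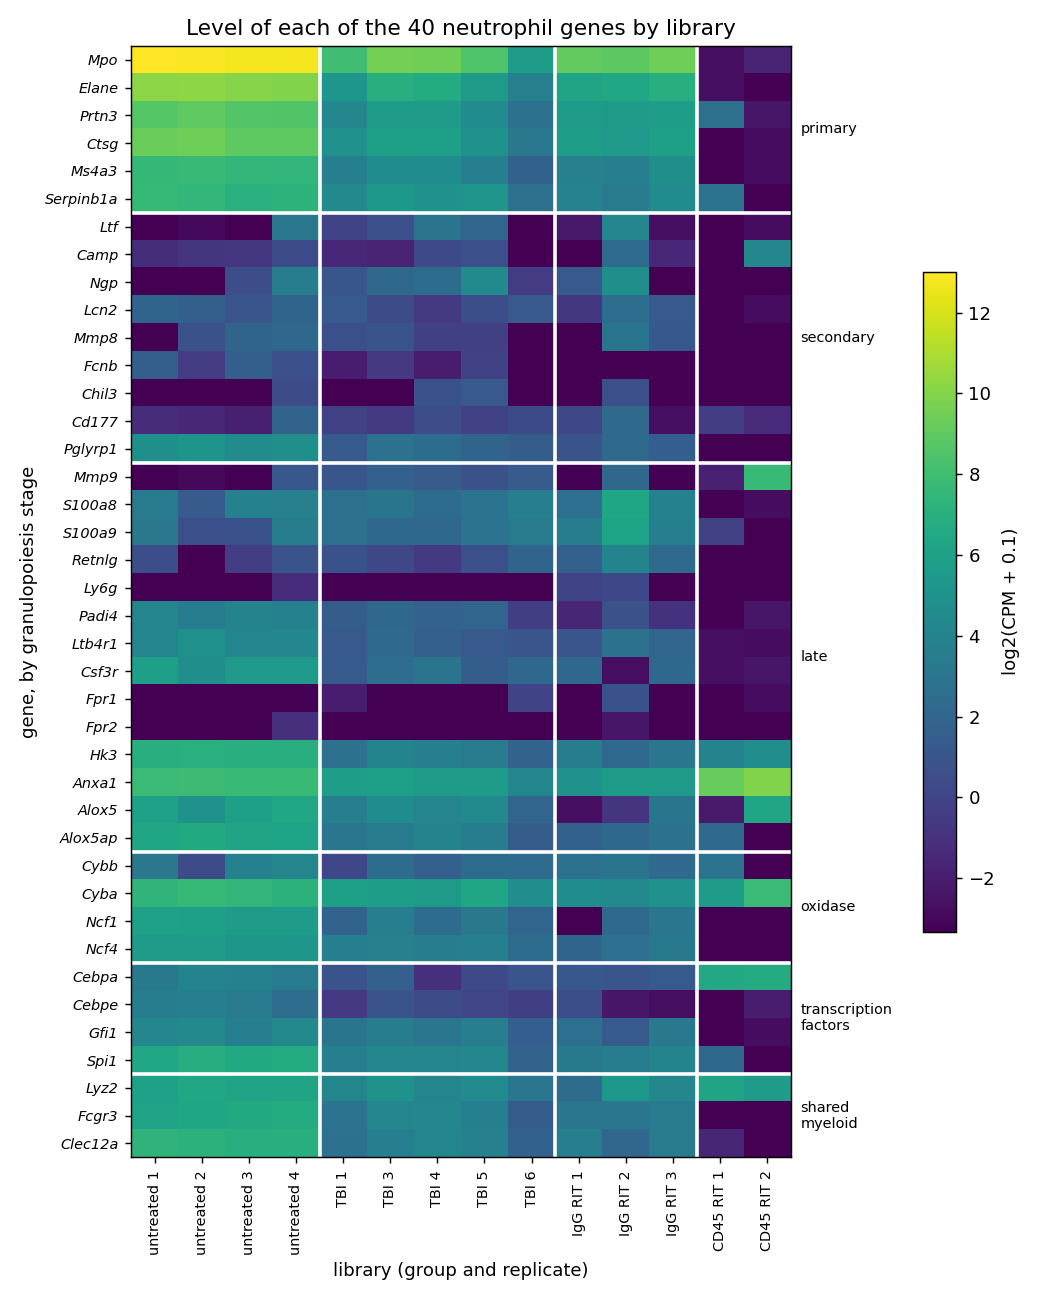
Level of each of the 40 genes (rows, grouped by stage) in each of the 14 libraries (columns, grouped by treatment), as log2 of CPM plus 0.1. The Mpo row is brightest in the 4 untreated libraries, at 7056 to 8265 CPM, and darkest in the 2 CD45 RIT libraries, at 0.0609 and 0.192 CPM, while the Anxa1 and Cebpa rows are brightest after CD45 RIT.

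Stretches before the start of 4 primary granule genes whose levels moved together, and of 2 secondary granule genes that were called in no comparison with untreated mice, are shown for comparison. They come from RefSeq windows (build GRCm38.p6, which held 34 of the 40 genes) and stop before any exon that GENCODE annotates, so that the stretch of Mpo is short. The Prtn3 stretch lies in an intron of a longer GENCODE transcript, and the other stretches lie upstream of their gene. Capitals mark AGGAAGT, which holds the core that PU.1 and other ETS factors bind, in the primary genes, and TTGCNNAA, a form of the C/EBP palindrome, in the secondary genes, on either strand.
Mpo, chr11:87793534-87793580, plus strand: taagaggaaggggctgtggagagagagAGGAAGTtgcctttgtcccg
Elane, chr10:79886062-79886246, plus strand: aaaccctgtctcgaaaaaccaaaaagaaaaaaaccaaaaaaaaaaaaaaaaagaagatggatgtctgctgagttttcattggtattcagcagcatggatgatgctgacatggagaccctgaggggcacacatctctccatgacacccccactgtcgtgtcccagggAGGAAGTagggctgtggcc
Prtn3, chr10:79879417-79879613, plus strand: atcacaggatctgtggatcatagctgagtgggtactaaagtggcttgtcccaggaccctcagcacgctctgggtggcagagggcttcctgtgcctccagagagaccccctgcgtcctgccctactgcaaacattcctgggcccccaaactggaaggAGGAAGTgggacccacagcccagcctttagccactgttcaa
Ctsg, chr14:56102575-56102824, minus strand: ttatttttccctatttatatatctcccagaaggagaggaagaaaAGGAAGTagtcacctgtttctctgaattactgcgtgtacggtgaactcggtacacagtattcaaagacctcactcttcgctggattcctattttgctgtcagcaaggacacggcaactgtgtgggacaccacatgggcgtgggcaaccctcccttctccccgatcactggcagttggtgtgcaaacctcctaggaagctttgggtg
Ltf, chr9:111019042-111019270, plus strand: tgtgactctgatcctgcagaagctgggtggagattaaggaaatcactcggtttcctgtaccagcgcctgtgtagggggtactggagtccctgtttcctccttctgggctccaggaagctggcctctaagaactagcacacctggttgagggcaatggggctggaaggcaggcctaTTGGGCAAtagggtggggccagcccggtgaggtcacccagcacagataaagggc
Ngp, chr9:110419558-110419746, plus strand: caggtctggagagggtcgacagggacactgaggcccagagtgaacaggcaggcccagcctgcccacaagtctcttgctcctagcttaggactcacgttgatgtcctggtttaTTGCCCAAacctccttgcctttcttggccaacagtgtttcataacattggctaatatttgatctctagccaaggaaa
In whole windows of 250 bases, searched on both strands, AGGAAGT occurred in 4 of the 5 primary genes that had a window, the 4 shown. It also occurred in 3 of 9 secondary genes, in 11 of 34 members and in 8.8% of all 27025 genes (7.69% of their 32851 windows). TTGCNNAA occurred in none of the 5 primary genes, in 5 of 9 secondary, 4 of 12 late and 2 of 3 shared myeloid genes. Its shares were 12 of 34 members and 10.8% of all genes (9.56% of windows). No AGGAAGT overlapped a TTGCNNAA in the 6 genes shown. Both letter strings were chosen with these sequences in view, and a match is a description of letters, not of a bound site.

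After TBI the primary granule genes were lower than in untreated mice in all 5 libraries, by a median of -3.86 on the log2 scale, while the secondary granule genes, several of them near 0 in untreated libraries, had a median change of -0.20. All differences given as log2 fold changes below are from edgeR's quasi-likelihood test over 21509 genes, and a gene is called when its Benjamini-Hochberg adjusted p is under 0.05. After TBI, 17 of the 39 tested members were called lower and none higher, where 3.38% of all genes tested were called lower and 0.921% higher. Fpr2 had too few counts to be tested. The members' median change was -2.28 on the log2 scale, beside -0.16 over all genes tested.

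Mpo (chr11:87793581-87804413, plus strand), the enzyme that makes hypochlorous acid in the phagosome, stood at 8265, 7652, 7076 and 7056 CPM in untreated replicates 1 to 4. After TBI it stood at 251, 765, 724, 371 and 49.1 CPM in replicates 1, 3, 4, 5 and 6. Every TBI library lay below every untreated one, and replicate 6 lay lowest (log2 fold change -4.12, SE 0.59, adjusted p = 0.003). Elane (chr10:79886247-79888215), neutrophil elastase, was at 1178, 1223, 1057 and 968 CPM in untreated libraries and at 37.7, 128, 105, 48.4 and 13.6 CPM after TBI. Among the TBI libraries it ran in the same order as Mpo (-4.06, SE 0.54, adjusted p = 0.00216). Ctsg (cathepsin G), Prtn3 (proteinase 3, the neighbour of Elane on chromosome 10) and Ms4a3, a membrane protein of granulocyte-monocyte progenitors, fell, with log2 fold changes of -3.89, -3.84 and -3.57. Serpinb1a, which inhibits the granule proteases, changed by -2.59 (SE 0.84) and did not pass (adjusted p = 0.111), although no TBI library reached an untreated one. The summed primary level was 9975 ± 819 CPM in untreated libraries and 611 ± 417 CPM after TBI (SD, n = 5), a ratio of 16.3. TBI replicate 6 was lowest of its group in all 6 primary genes and in 24 of the 38 members with counts in the group. Its erythroid sum of 219897 CPM was the highest of the TBI group, and the part of that in the low levels was not tested. Without replicate 6, which left TBI and untreated libraries numbered under 10, 13 members were called lower. Mpo, Elane, Ctsg and Ms4a3 were called in each of the 14 fits that left out 1 library, and Prtn3 in all but the fit without TBI replicate 5 (adjusted p = 0.0507).

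Of the 9 secondary granule genes, 1 was called lower after TBI, beside 3.38% of all genes tested. Several had few or no counts in untreated libraries (Ltf, Ngp and Chil3 at 0 in 2 or 3 of the 4), so that a fall in them could hardly have been detected. The called gene was Pglyrp1, a peptidoglycan-binding granule protein, which stood at 28.4, 35.6, 23.4 and 28.5 CPM in untreated libraries and 2.41, 7.12, 5.44, 3.76 and 2.73 CPM after TBI (log2 fold change -2.75, SE 0.44, adjusted p = 0.0056). Ltf, which encodes lactoferrin, had 0, 0.0299, 0 and 8.66 CPM in untreated libraries and 0.92, 1.49, 7.63, 3.83 and 0 CPM after TBI. Its untreated level thus rested on replicate 4 (0.36, SE 1.96, adjusted p = 0.966). Ngp, the neutrophilic granule protein, had 0, 0, 1.33 and 11.5 CPM in untreated libraries and 1.98, 4.53, 5.39, 21.8 and 0.646 CPM after TBI, again with overlap (1.10, SE 1.86, adjusted p = 0.853). Camp (cathelicidin), Lcn2 (the siderophore-binding lipocalin), Mmp8 (neutrophil collagenase), Fcnb (ficolin B) and Chil3 (a chitinase-like protein) stayed under 5 CPM in every untreated and TBI library, with log2 fold changes from -2.60 to 1.37. Cd177, a surface glycoprotein of neutrophil subsets, changed by -0.20. The secondary sum was 44 ± 14.1 CPM in untreated libraries and 19.1 ± 12 CPM after TBI (SD, n = 5), and most of the untreated part was Pglyrp1.

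**Figure D2:**
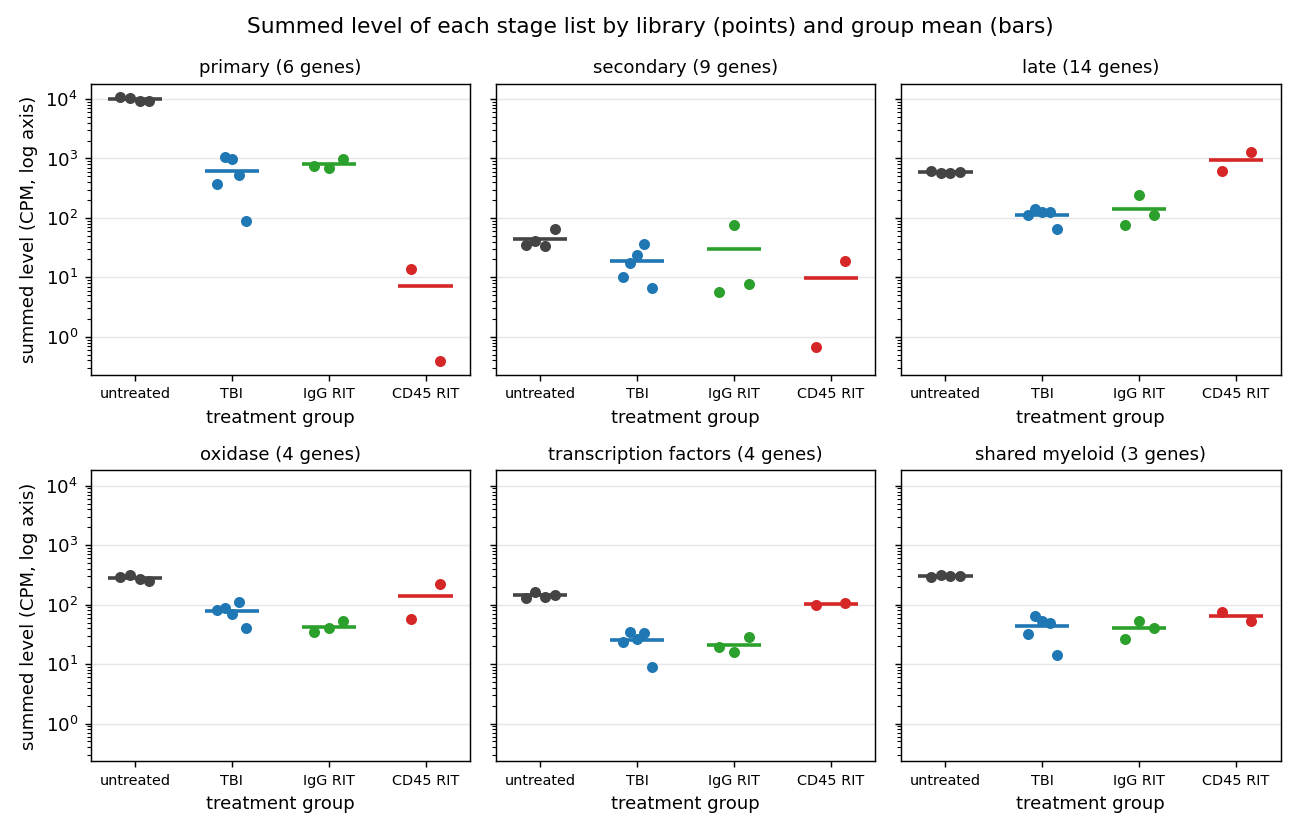
Summed CPM (log axis) of each stage list in each library (points), with the group mean (bar), for 4 untreated, 5 TBI, 3 IgG RIT and 2 CD45 RIT libraries. The primary sums fall apart into 9212 to 10868 CPM untreated, 88.8 to 1070 after TBI, 688 to 977 after IgG RIT and 14 and 0.385 after CD45 RIT, while 1 TBI library (36.9 CPM) and 1 IgG RIT library (77.3 CPM) reach the untreated secondary sums of 34 to 64.5 CPM.

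Late-stage genes divided after TBI, with 4 of 13 tested genes called lower, beside 3.38% of all genes tested. Hk3, the hexokinase of myeloid cells, was at 122, 132, 128 and 122 CPM in untreated libraries and 7, 16.4, 13.3, 10 and 3.52 CPM after TBI (-3.64, SE 0.42, adjusted p = 0.00136). Csf3r, the receptor for G-CSF, fell by 3.28 on the log2 scale. Ltb4r1, a leukotriene B4 receptor, fell by 2.89, and Anxa1 (annexin A1), a phospholipid-binding protein of neutrophil cytosol and of many other cells, fell by 2.20. The call for Csf3r (adjusted p = 0.0336) was lost when any 1 untreated or TBI library was left out, with an adjusted p of up to 0.092. S100a8 and S100a9, the paired calcium-binding proteins of neutrophil cytosol, were not among the genes called. S100a8 stood at 11.2, 2.51, 14.1 and 13.5 CPM in untreated libraries and at 6.37, 7.88, 5.39, 7.35 and 12.6 CPM after TBI, with full overlap (-0.38, SE 0.70, adjusted p = 0.864). S100a9 changed by 0.13, Retnlg (a resistin-like protein of mature neutrophils) by 0.82 and Mmp9 (gelatinase of tertiary granules) by 2.14, none of them called. Padi4, which citrullinates histones, Alox5ap and Alox5, both needed for leukotriene synthesis, had no TBI library within the untreated range, with changes of -2.28, -3.06 and -1.94 that did not pass (adjusted p from 0.0609 to 0.461). Ly6g, which carries the antigen of the Gr-1 antibody on mature mouse neutrophils, had 9 counts in untreated replicate 4 and none in any other untreated or TBI library. Fpr1, a formyl peptide receptor, had no counts in untreated libraries and 4 and 13 counts in TBI replicates 1 and 6.

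Of the oxidase, transcription factor and shared myeloid genes, 2 of 4, 2 of 4 and 3 of 3 were called lower after TBI. Over all genes tested the share was 3.38%. In the NADPH oxidase, which makes superoxide, Ncf4 (p40phox) changed by -1.99 and Cyba (p22phox) by -1.62 on the log2 scale, both called. Ncf1 (p47phox) changed by -3.02 (SE 0.91) and Cybb (gp91phox) by -1.36 (SE 1.02) without passing. Cebpa, which encodes C/EBPα, stood at 9.56, 16.1, 14.2 and 10.8 CPM in untreated libraries and at 1.70, 3.14, 0.381, 1.12 and 1.87 CPM after TBI (-2.94, SE 0.47, adjusted p = 0.00467). Cebpe (C/EBPε) fell by 3.24, at an adjusted p of 0.0499. Spi1, which encodes PU.1, changed by -2.86 (SE 0.80, adjusted p = 0.0662) and Gfi1 by -1.07 (SE 0.50, adjusted p = 0.281). Gfi1 therefore had the smallest change of the 4 factors, in libraries where no TBI value reached an untreated one. The 3 shared genes Clec12a (a C-type lectin receptor), Fcgr3 (an IgG receptor) and Lyz2 (lysozyme) fell, with log2 fold changes of -3.67, -2.86 and -1.90. Leaving out any 1 untreated or TBI library ended the calls for Cebpe and Lyz2 (adjusted p up to 0.122), and leaving out any 1 untreated library or TBI replicate 1, 3, 4 or 6 ended that for Cyba (up to 0.0997). Lyz2 also lost its call without IgG RIT replicate 3.

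**Figure D3:**
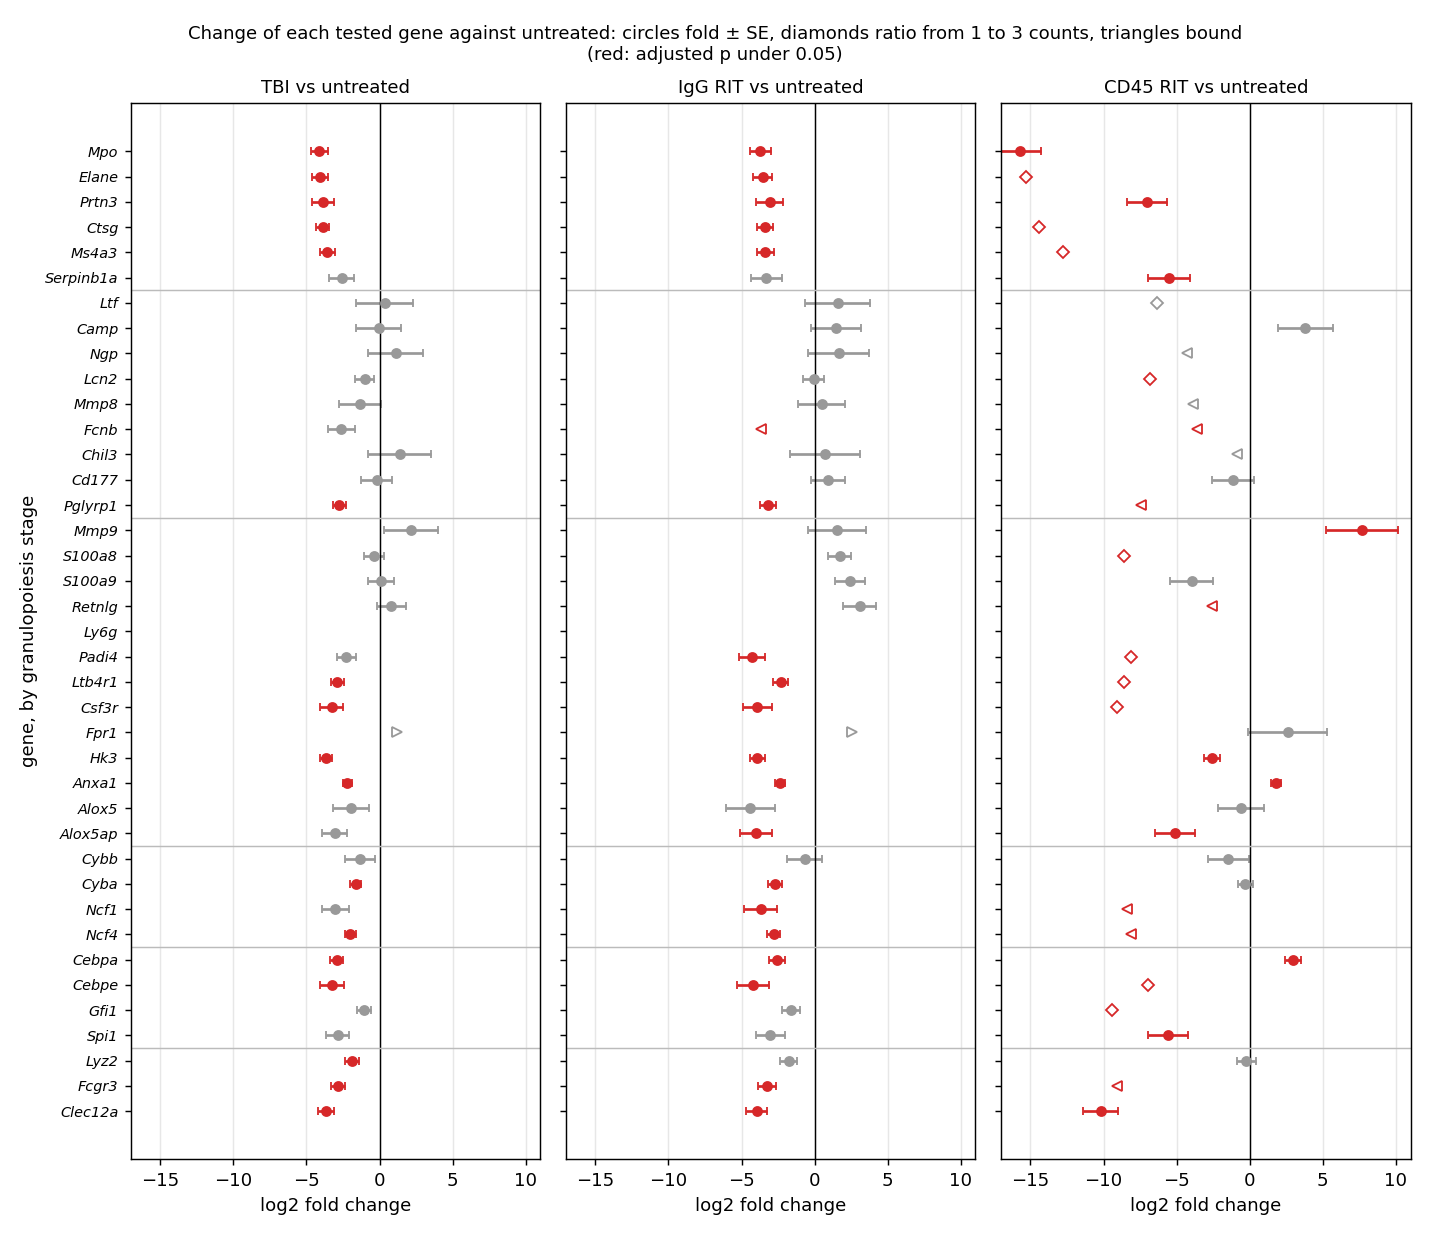
Log2 fold change of each tested gene except Ly6g, which has no marker, against untreated mice after TBI, IgG RIT and CD45 RIT. Fpr1 after CD45 RIT is drawn at its fitted value, although untreated libraries had no counts of it. Filled circles with bars are fitted values ± SE, open diamonds are ratios where the lower group had 1 to 3 counts, open triangles are bounds where it had none, and red marks an adjusted p under 0.05; the primary genes lie from -4.12 to -2.59 after TBI and from -3.71 to -3.07 after IgG RIT, with 5 of 6 called in each, and all 6 are called in the CD45 RIT panel.

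After IgG RIT, 5 of the 6 primary granule genes were again called lower. Of all 39 tested members 20 were called lower and none higher, where 10.7% of all genes tested were called lower and 5.75% higher, and the median change was -2.73 against -0.42 over all genes. Both comparisons share the 4 untreated libraries. Mpo stood at 550, 484 and 685 CPM in replicates 1 to 3 (log2 fold change -3.71, SE 0.72, adjusted p = 0.00634), a narrower range than after TBI. Elane (73.7, 89.8 and 123 CPM) had a log2 fold change of -3.54, Ctsg of -3.41, Ms4a3 of -3.36 and Prtn3 of -3.07, all called. Serpinb1a changed by -3.32 (SE 1.06) and just missed the threshold (adjusted p = 0.0507). The primary sum was 808 ± 151 CPM (SD, n = 3), 12.3-fold below untreated. Prtn3 (adjusted p = 0.0374) lost its call without any 1 untreated or IgG RIT library, or without TBI replicate 1 or 5 (up to 0.115), and the other 4 calls held in each of the 14 fits.

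Secondary and late genes after IgG RIT were set mostly by replicate 2. That library was the highest of its group in all 8 secondary genes with counts and in 9 of 13 late genes. Ltf stood at 0.116, 19.2 and 0.0525 CPM in replicates 1 to 3, Ngp at 2.31, 27.7 and 0 CPM, and Mmp8 at 0, 8.06 and 2.21 CPM. S100a8 stood at 6.08, 81.4 and 14.4 CPM and S100a9 at 11.4, 71.7 and 13.2 CPM, so that the replicate 2 level was over 5 times that of the next library in both. Its primary genes were not high, with Mpo lowest of the 3. None of these genes was called (S100a9 2.41, SE 1.03, adjusted p = 0.125). Retnlg, at 3.13, 16.5 and 4.89 CPM, lay above the untreated range of 0 to 1.77 CPM in all 3 libraries but did not pass either (3.08, SE 1.15, adjusted p = 0.09). DESeq2 called S100a9 and Retnlg higher, and so did edgeR without either CD45 RIT library. Without replicate 2 the change of Ltf turned to -4.62, that of Ngp to -1.47, that of Camp to -2.24, that of Mmp8 to -1.15, that of Mmp9 to -6.72 and that of S100a8 to -0.01, none of them called. Ly6g had 15 and 21 counts in replicates 1 and 2 and none in replicate 3.

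Pglyrp1 and Fcnb were the secondary genes that fell after IgG RIT. Pglyrp1 stood at 1.68, 4.88 and 2.84 CPM (-3.21, SE 0.55, adjusted p = 0.00427). Fcnb had no counts in any of the 3 libraries against 0.628 to 3.04 CPM in untreated mice, at least 12.7-fold lower with a floor of 3 counts per library. Among late genes, Padi4, Csf3r, Alox5ap, Hk3, Anxa1 and Ltb4r1 fell, with log2 fold changes of -4.29, -3.92, -4.02, -3.92, -2.37 and -2.33. Padi4 was at 0.231, 1.59 and 0.42 CPM, and without replicate 2 its change grew to -5.48. Alox5ap lost its call without untreated replicate 2 or any 1 IgG RIT library, and Csf3r without IgG RIT replicate 1, where the remaining 2 libraries lay at 0.0498 and 4.41 CPM. Cyba, Ncf4 and Ncf1 of the oxidase fell, with log2 fold changes of -2.73, -2.79 and -3.69, and Cybb did not pass at -0.69 (SE 1.18). The Ncf1 call (adjusted p = 0.049) held in 3 of the 14 fits that left out 1 library, those without IgG RIT replicate 1 or either CD45 RIT replicate. Cebpe fell by 4.23 and Cebpa fell by 2.57, whereas Spi1 (-3.02, adjusted p = 0.0542) and Gfi1 (-1.60, adjusted p = 0.0868) did not pass. Cebpe was at 1.45, 0.0995 and 0.0525 CPM, its call was lost without replicate 2 or 3, and its change lay between -6.94 and -3.69 over the fits. Clec12a and Fcgr3 fell, with log2 fold changes of -3.95 and -3.26, and Lyz2 changed by -1.77 (adjusted p = 0.0581).

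Set against each other, IgG RIT and TBI gave no member called by edgeR in either direction, where 0.172% of all genes tested were called lower after IgG RIT than after TBI and 0.0697% higher. At an unadjusted p under 0.05 there were 6 of 39 members, beside 3984 of the 21509 genes tested, so the members showed no excess. DESeq2 called 2 of them, Fcnb (-4.97) and Padi4 (-1.91), lower after IgG RIT. It called 2085 of the 21509 genes in either direction. The edgeR difference in Mpo was 0.41 (SE 0.59), in Elane 0.52 (SE 0.53) and in Cebpa 0.37 (SE 0.49). For S100a8 and Retnlg it was 2.10 (SE 0.75, adjusted p = 0.17) and 2.27 (SE 1.05, adjusted p = 0.275), and a change of that size could not be told from 0 at this number of libraries. The members' median difference was 0.13.

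CD45 RIT left 5 or fewer counts of Mpo, Elane, Ctsg and Ms4a3 over both libraries, and all 6 primary granule genes were called lower. Mpo had 1 and 4 counts in replicates 1 and 2, 0.0609 and 0.192 CPM, against 203739 to 315712 counts in untreated libraries (log2 fold change -15.74, SE 1.47, adjusted p = 1.78e-05). Elane had 1 and 0 counts, and the ratio of untreated to CD45 RIT was 41171 (95% counting interval 7389 to 1626174). Ctsg had 0 and 1 counts and Ms4a3 had 0 and 1 counts, with ratios of 21405 (3842 to 845464) and 7021 (1260 to 277328). Prtn3 and Serpinb1a were the exceptions in size. Replicate 1 held 107 counts of Prtn3 (6.52 CPM) and 120 of Serpinb1a (7.31 CPM), where replicate 2 held 2 and 0. Their changes were -7.03 (SE 1.35) and -5.50 (SE 1.44), and over the fits that left out 1 library they lay between -12.06 and -6.07 and between -15.03 and -4.54. The primary sum was 14 and 0.385 CPM. Across all stages 23 of 39 members were called lower and 3 higher, where 18.6% of all genes tested were called lower and 14.5% higher, and the members' median was -6.94 (-5.50 with genes at 0 set at their bound) beside -0.37 over all genes. The group had 2 libraries, and with total counts alone in place of TMM scaling the median of all genes moved from -0.37 to -1.08.

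Of the 9 secondary granule genes, 3 were called lower after CD45 RIT and none higher, beside 18.6% and 14.5% of all genes tested. Ngp, Mmp8, Fcnb, Chil3 and Pglyrp1 had no counts in either library, and Ltf and Lcn2 had 1 count in all. Against untreated mice, Pglyrp1 was at least 177-fold lower and Fcnb at least 12.4-fold, and Lcn2 was lower by a ratio of 115 (95% counting interval 20.6 to 4538). These 3 were called, Fcnb not without CD45 RIT replicate 2 (adjusted p = 0.0538). Ltf, Ngp, Mmp8 and Chil3 were not called, and their untreated libraries included values at or near 0. Camp had 0 and 382 counts, the latter 18.4 CPM and the highest Camp level of the 14 libraries (3.81, SE 1.90, adjusted p = 0.134), and without replicate 2 its change turned to -6.96. Cd177 had 11 and 6 counts.

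Of the 13 tested late genes, 7 were called lower and 2 higher after CD45 RIT. Over all genes tested, 18.6% were called lower and 14.5% higher, so the higher count was near that share. S100a8 had 0 and 1 counts (ratio 385, 95% counting interval 69 to 15188) and S100a9 13 and 0 counts (-3.95, SE 1.47, adjusted p = 0.0555). Padi4, Ltb4r1 and Csf3r had 2, 2 and 3 counts over both libraries, with ratios of 275 (76.2 to 2272), 391 (108 to 3232) and 549 (188 to 2664). Retnlg had no counts and was at least 5.88-fold lower, a call lost without untreated replicate 1 or 4 or either CD45 RIT replicate (adjusted p up to 0.123). Alox5ap fell by 5.12, with 77 counts in replicate 1 and none in replicate 2. Hk3 kept 15.8 and 26.1 CPM, above every TBI and IgG RIT library but 1, TBI replicate 3 at 16.4 CPM, and below untreated (-2.58, SE 0.58, adjusted p = 0.00539). Anxa1 rose, from 221, 237, 218 and 204 CPM in untreated libraries to 582 and 958 CPM (1.81, SE 0.36, adjusted p = 0.00273). With total counts alone in place of TMM scaling, the Anxa1 change was 1.12 and its edgeR call was lost (adjusted p = 0.0616). Mmp9 was called higher at 0.183 and 217 CPM (7.69, SE 2.48, adjusted p = 0.0318), a value that rested on replicate 2: without it the change turned to -1.50. The Mmp9 call was also lost without untreated replicate 1, 2 or 3. Alox5 showed the same split, with 0.122 and 81.3 CPM, and was not called (-0.59, SE 1.60). The late sum was 604 and 1282 CPM in CD45 RIT replicates 1 and 2 and 571 to 606 CPM in untreated libraries. Without Anxa1 it was 21.8 and 324 CPM, against 334 to 385 CPM.

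**Figure D4:**
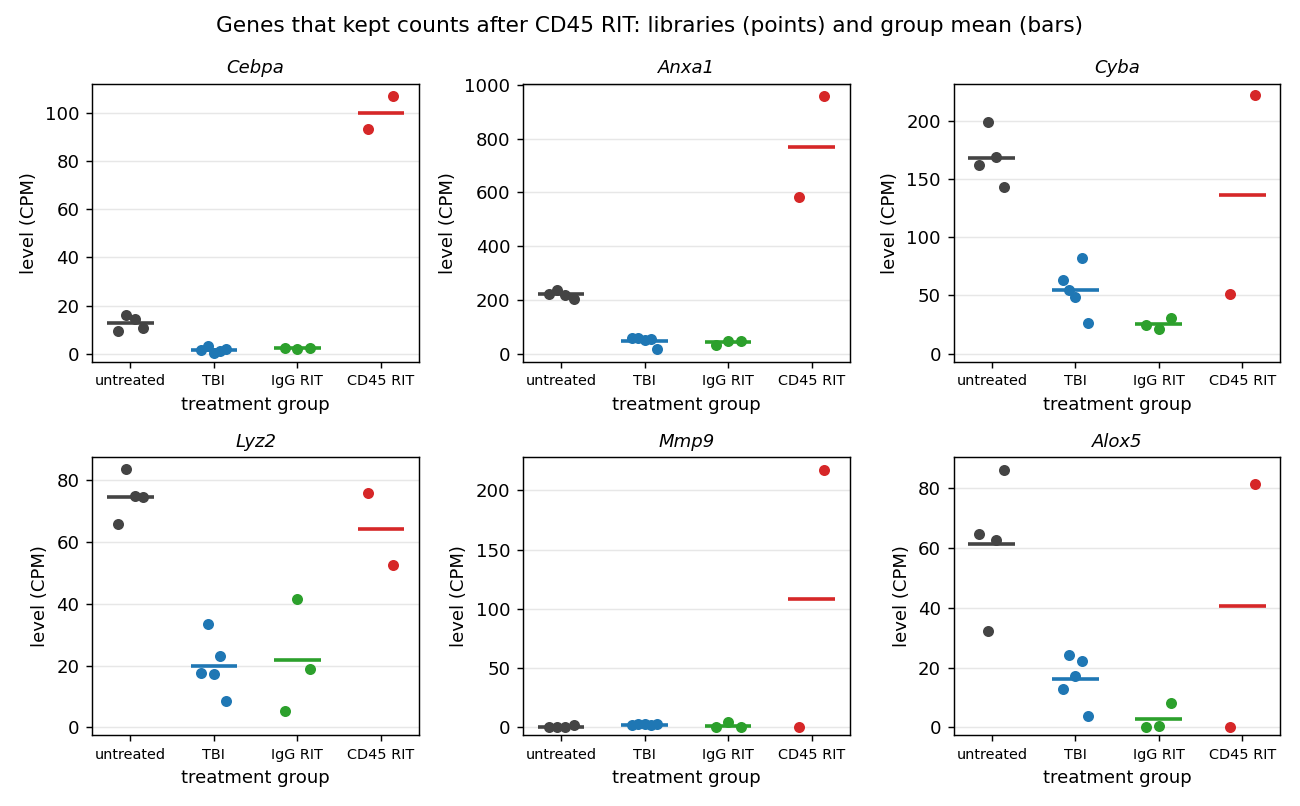
Level (CPM) of 6 genes, chosen after their values were seen, that kept counts after CD45 RIT: libraries as points, group means as bars. Cebpa and Anxa1 lie above all other groups in both CD45 RIT libraries, Lyz2 lies near the untreated range, and Mmp9 and Alox5 are high in 1 of the 2 CD45 RIT libraries.

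Oxidase subunits and transcription factors split within their lists after CD45 RIT. Ncf1 and Ncf4 had no counts, at least 344-fold and 277-fold lower than in untreated mice. Cyba, whose product also serves oxidases of non-blood cells, was at 50.8 and 222 CPM around the untreated range of 143 to 199 CPM (-0.30, SE 0.50, adjusted p = 0.653; 0.03 with RLE factors). Cybb had 123 and 0 counts. Gfi1 and Cebpe had 1 and 3 counts over both libraries, with ratios of 674 (95% counting interval 121 to 26630) and 124 (42.4 to 601), and Spi1 had 70 and 0 counts (-5.59, SE 1.36, adjusted p = 0.00851). Cebpa went the other way, to 93.5 and 107 CPM against 9.56 to 16.1 CPM in untreated libraries (2.98, SE 0.55, adjusted p = 0.00175), and its call held in each of the 14 fits that left out 1 library. Fcgr3 had no counts (at least 540-fold lower), Clec12a 4 and 0 counts, and Lyz2 75.8 and 52.7 CPM, not called (-0.22, SE 0.63; 0.03 with RLE factors).

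Markers of other cells moved beside these exceptions. C/EBPα is, as background, also a factor of the adipocyte lineage and liver, and Anxa1 and Cyba are expressed in many cell types. After CD45 RIT, 18.6% of all genes tested were called lower than untreated and 14.5% higher. None of 10 stromal markers was at 0 after CD45 RIT, and 9 of 10 were called higher than untreated, among them Cxcl12 (1129 CPM untreated, 25840 CPM after CD45 RIT), Lepr (80 and 1740), Adipoq (158 and 3676) and Lpl (116 and 7708). The stromal sum was 2648 to 6664 CPM in untreated libraries, 897 to 1917 after TBI, 388 to 1449 after IgG RIT, and 55040 and 72586 CPM after CD45 RIT. A macrophage list of 10 genes summed to 63.5 to 120 CPM untreated, 11.3 to 40.8 after TBI, 22.6 to 60.7 after IgG RIT, and 3570 and 2935 CPM after CD45 RIT. Most of that sum was Vcam1 (78.5 CPM untreated, 3182 CPM after CD45 RIT), which stromal cells also express. Adgre1 had no counts after CD45 RIT, Cd5l none there or in untreated libraries, and Vsig4 none in any library. Of 9 tested genes of the list 2 were called lower (Adgre1 and Cd163), near the share over all genes. The 4 called higher were Vcam1, C1qa, C1qb and C1qc. After CD45 RIT, C1qa lay at 0 to 15.7 CPM, C1qb at 18.5 to 56.4 CPM and C1qc at 0.122 to 30.6 CPM. Their untreated means were 0, 0.583 and 0.197 CPM. A monocyte list of 8 genes summed to 461 to 536 CPM untreated, 25.3 to 114 after TBI, 28.9 to 140 after IgG RIT, and 36.1 and 450 CPM after CD45 RIT, where F13a1 made 341 of the 450 CPM. Of its 8 genes, 5 were called lower after CD45 RIT, and Ly6c2, Ccr2 and Ms4a6c had no counts there. A list of 8 eosinophil and basophil genes summed to 6733 to 8870 CPM in untreated libraries, 341 to 1637 after TBI, 13.1 to 457 after IgG RIT, and 0.183 and 0.481 CPM after CD45 RIT. A list of 8 B lineage genes, none called after TBI, summed to 564 to 1901 CPM untreated and 282 to 2555 after TBI, lowest in TBI replicate 6. It summed to 175 to 626 after IgG RIT, and 565 and 533 CPM after CD45 RIT. Ebf1 made 327 to 375 CPM of these CD45 RIT sums, beside a mean of 87.3 CPM in untreated libraries. Pax5 had no counts after CD45 RIT. Of the 8 genes, 2 were called lower there, near the share over all genes, and none higher. For 7 progenitor genes, among them Cd34 and Kit, the sums were 711 to 1115 CPM untreated, 48.2 to 294 after TBI, 50.5 to 97.8 after IgG RIT, and 13.5 and 118 CPM after CD45 RIT. Meis1 made 82.3 of the 118 CPM, and Cd34 had no counts after CD45 RIT. For 5 genes of all leukocytes the sums were 947 to 1237, 92.5 to 633, 106 to 229, and 135 and 74.1 CPM. Ptprc, which encodes the CD45 that the sort selected against, stood at 47.2 to 85.7 CPM in untreated libraries. The part of these cells in the levels of Cebpa, Anxa1, Cyba, Lyz2, Mmp9 and the primary genes was not tested.

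CD45 RIT was also set against each of the other treatments. Relative to IgG RIT, 18 of 39 members were called lower and 3 higher (Cebpa, Anxa1 and Cyba), where 17.5% of all genes tested were called lower and 20.2% higher. Relative to TBI, 20 were lower and 4 higher (the same 3 and Lyz2), where 19% and 19.6% of all genes were. Mpo differed by -12.03 (SE 1.34, adjusted p = 4.47e-05) from IgG RIT and by -11.62 (SE 1.31, adjusted p = 3.14e-05) from TBI. S100a8, which was not called against untreated after TBI or IgG RIT, was lower after CD45 RIT than after both (-7.98 and -10.08, adjusted p = 0.00155 and 0.000599). Cebpa was higher by 5.55 (SE 0.68) than after IgG RIT and by 5.92 (SE 0.56) than after TBI, and Anxa1 by 4.18 (SE 0.42) and 4.01 (SE 0.34). Cyba, higher by 2.43 (SE 0.52) and 1.31 (SE 0.45), lost both calls without CD45 RIT replicate 2, and the second turned to -0.24. The call against TBI was also lost without TBI replicate 1, 3, 4 or 6. Lyz2, higher by 1.68 (SE 0.57) than after TBI, lost its call without either CD45 RIT replicate or without TBI replicate 1, 4, 5 or 6. Of the lower calls, Padi4 against IgG RIT was lost without IgG RIT replicate 2 or CD45 RIT replicate 1. Against TBI, Prtn3 was lost without TBI replicate 3 or 4, Retnlg without CD45 RIT replicate 2, and S100a9, Cebpe and Fcnb in 7, 10 and 13 of the 14 fits.

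The stage makeup is given library by library, as a description with no test. Shares of the members' summed counts are given for single libraries with 95% Wilson intervals, which cover counting error only. Primary genes made 87.2% to 89% in the untreated libraries. After TBI they made 59.2%, 75.7%, 77% and 59.8% in replicates 1, 3, 4 and 5, and 39.4% (37.7% to 41.1%) in replicate 6. After IgG RIT they made 82.4% (81.8% to 83%), 61.5% (60.9% to 62.1%) and 80.2% (79.7% to 80.8%). These shares lay below the untreated range, and those after TBI and IgG RIT overlapped. After CD45 RIT they made 1.64% (1.44% to 1.87%) and 0.0229% (0.0116% to 0.0451%), and late genes, mostly Anxa1, made 71% and 76.2%. Secondary genes made 0.293% to 0.61% in untreated libraries, 1.24% to 4.19% after TBI, 0.616%, 6.91% and 0.634% after IgG RIT, and 0.0788% and 1.11% after CD45 RIT. In level, the secondary sums after TBI and IgG RIT were not higher than untreated except in IgG RIT replicate 2 (77.3 CPM, untreated up to 64.5 CPM).

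**Figure D5:**
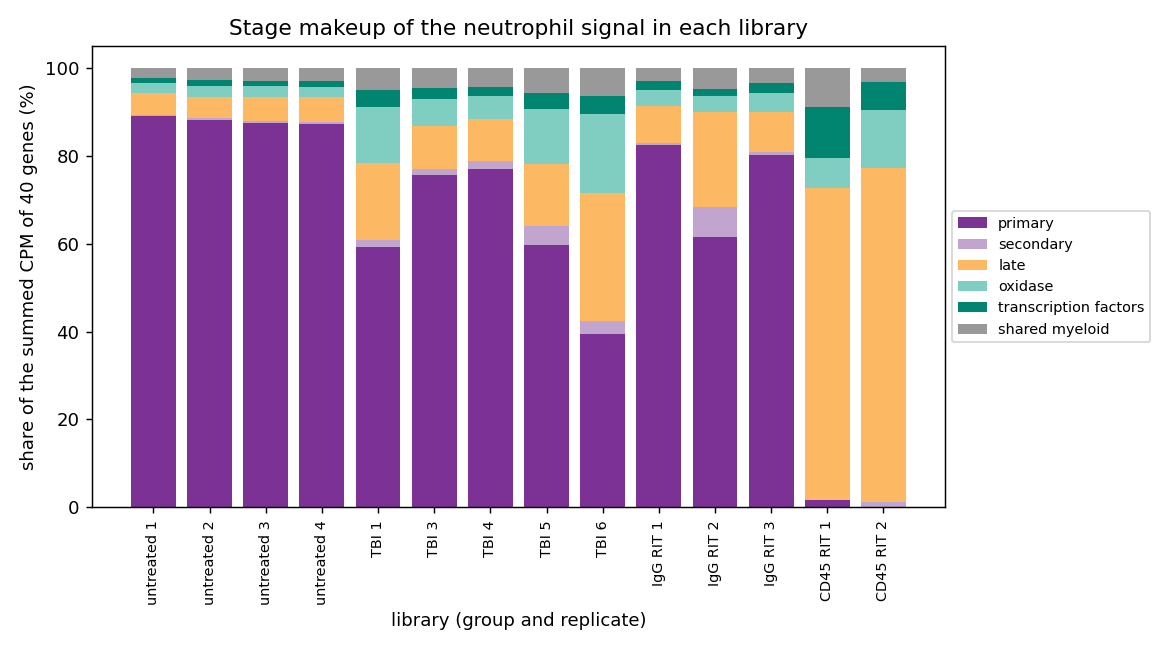
Share (%) of each stage list in the summed CPM of the 40 genes, stacked for each library. The primary part (lowest block) takes 87.2% to 89% in untreated libraries, 39.4% to 77% after TBI, 61.5% to 82.4% after IgG RIT and under 2% after CD45 RIT, where the late part takes 71% and 76.2%.

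Further genes of the same program, none of them among the 40, were read from lists of early, secondary and late granulopoiesis. Over all genes tested, 3.38% were called lower after TBI, 10.7% after IgG RIT and 18.6% after CD45 RIT. Called higher were 5.75% after IgG RIT and 14.5% after CD45 RIT. Of 13 early genes, 8 were called lower after TBI, 9 after IgG RIT and 7 after CD45 RIT, and 2 were called higher after CD45 RIT, a share near that over all genes. Nkg7, a granule protein of cytotoxic and early myeloid cells, changed by -3.61 after TBI, -4.13 after IgG RIT and -12.96 after CD45 RIT, and Plac8 by -3.57, -3.78 and -4.55, all called. The 2 that rose after CD45 RIT were Mgst1 (3.08, SE 0.32), a microsomal glutathione transferase, and Cd63 (1.77, SE 0.27), a tetraspanin of granules and lysosomes. Of 9 tested secondary genes of 12, 2 fell after TBI and after IgG RIT, Trem3 (-3.06 and -2.73) and Cebpd, which encodes C/EBPδ (-1.59 and -1.47). After CD45 RIT, Trem3 and Wfdc21 had no counts and were called lower, while haptoglobin, Hp, rose by 3.51 (SE 0.79) from 354 to 4032 CPM and Cebpd by 1.60 (SE 0.30); these 2 lower and 2 higher of 9 were near the shares over all genes. Of 18 tested late genes of 21 in the table, 3 fell after TBI, 7 after IgG RIT and 12 after CD45 RIT. Itgb2 (the β2 integrin chain) and Clec4d had no counts after CD45 RIT. Late genes that rose numbered 2 of 18 after IgG RIT and 3 of 18 after CD45 RIT, the latter near the share over all genes. After IgG RIT they were Grina (3.03, SE 0.55) and Mxd1, an antagonist of MYC (2.90, SE 0.58). After CD45 RIT they were Lrg1 (3.90, SE 1.24), Mxd1 (2.07, SE 0.62) and Grina (1.82, SE 0.58). Median changes after TBI were -2.47 for the early, -2.09 for the secondary and -1.54 for the late list.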

How the data were processed

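The submitters' processing notes name STAR 2.7.7a, FastQC 0.11.9 and edgeR 3.36.0, without their roles, and build hg38 although the organism is mouse. The deposited table holds raw counts per gene made by the authors, with gene positions that equal GENCODE M21 (GRCm38) for all 54587 matched IDs. The counting tool and its strand setting are not given in the sources used here. RNA was extracted with a Qiagen microPrep kit and libraries were made with SMART-Seq v4 and Nextera XT, per the labels' protocols; this chemistry carries no molecular identifiers, so counting intervals do not cover amplification.

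All 14 libraries entered 1 edgeR 4.0.16 fit (R 4.3.3; filterByExpr, TMM factors, robust glmQLFit, glmQLFTest), with 1 coefficient per group and no replicate block. Adjusted p-values are Benjamini-Hochberg over 21509 genes within a contrast. The fit was tested on simulated data, with 200 genes changed in 1 treated group at a time. For TBI, IgG RIT and CD45 RIT against untreated it recovered 64%, 67% and 45.1% of 32-fold changes. Of 4-fold changes it recovered 24.7%, 13.4% and 10.1%, with 3, 3 and 0 false calls. A gene that was not called may therefore still have changed. Standard errors were taken as the absolute log2 change over the root of F. A group without counts was set at 3 counts per library for a bound, and 1 to 3 counts in a group were given a 95% Poisson interval. Nothing says that replicates came from separate mice, so p-values measure the spread between these libraries, which may be technical. Alternatives were RLE factors, total counts alone, no filter, DESeq2 1.42.0, a replicate block and leaving out each library.

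The members, the stage lists and the further lists were chosen with earlier results of these data known. All 40 members may be named, with per-library values for stage representatives, and further genes are named only where they had the 3 largest rises or falls of their list. A gene that this rule would name is not reported here. Genes of similar sequence, such as Fpr1 and Fpr2, may share reads.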

Additional observations from a re-analysis of the deposited data

Results flagged for a closer look

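Of 89 groups of 4 or 5 libraries checked, 13 had a highest or lowest library apart from the others by Dixon's 95% limit. That limit assumes independent, normally distributed values, which sparse genes do not give, so 13 of 89 is not set against a chance rate. Counts in 1 library alone set the flag for Chil3, Ly6g and Fpr2 in the untreated group. Untreated replicate 4 was the distant library in 8 of the 13. It held Ltf at 8.66 CPM, where the others had at most 0.0299 CPM, and Ngp at 11.5 CPM, where the others had at most 1.33 CPM. It also held Camp at 1.32 CPM, Chil3 at 1.21 CPM, Cd177 at 3.5 CPM, Mmp9 at 2.08 CPM, Ly6g at 0.312 CPM and Fpr2 at 0.381 CPM, while its Mpo of 7056 CPM was the lowest of the 4 untreated libraries. The 8 flagged genes are secondary or late genes, and in most of them the other untreated libraries lay near 0. Untreated replicate 2 held Ltb4r1 at 29.1 CPM, where the others had 17.9 to 18.8 CPM.

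In the TBI group, replicate 5 held Ngp at 21.8 CPM, where the others had 0.646 to 5.39 CPM. Replicate 6 was low for Anxa1 at 18.3 CPM, where the others had 50.7 to 59.3 CPM, and for Ncf4 at 5.31 CPM, where the others had 11.5 to 13.8 CPM. It was high for Fpr1 at 0.933 CPM, which is 13 counts. Groups of 3 and 2 libraries, which include IgG RIT replicate 2 with its high secondary and late genes, were not checked in this way.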

How the results depend on the processing

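Direction and call of most values held. Of the counts of members called, those for TBI lower (17), IgG RIT lower (20) and CD45 RIT lower (23) and higher (3) stayed within 1.5 times under RLE factors, total counts alone, no filter, DESeq2 and each left-out library. Other counts moved. DESeq2 called 2 members higher after IgG RIT (S100a9, 2.61, adjusted p = 0.03, and Retnlg, 3.28, adjusted p = 0.0174) where edgeR called 0, 6 rather than 3 higher after CD45 RIT than after IgG RIT, and 2 rather than 0 lower after IgG RIT than after TBI. DESeq2 also called more of all 21509 genes in these contrasts. In either direction it called 5942 rather than 3536 for IgG RIT against untreated and 10002 rather than 8108 for CD45 RIT against IgG RIT. For IgG RIT against TBI it called 2085 rather than 52. Against TBI, 2 rather than 4 members were higher after CD45 RIT with total counts alone, with no filter and with the replicate block. Over the fits that left out 1 library, members higher after IgG RIT numbered 0 to 2, higher after CD45 RIT than after IgG RIT 2 to 6, higher after CD45 RIT than after TBI 2 to 5, and lower after IgG RIT than after TBI 0 to 1. The causes were not tested.

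Deviations of same-numbered libraries from their group means correlated at -0.0896 to 0.139. Libraries of different number were not compared, so these values cannot settle whether replicate numbers pair the samples. With the replicate number as a block, which leaves few residual degrees of freedom, 3 members (Mpo, Ctsg and Anxa1) were called lower after TBI and 13 rather than 20 lower after CD45 RIT than after TBI.

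Reversed signs occurred in members that were not called, except Mmp9 after CD45 RIT and Cyba against TBI. RLE factors gave 0.03 for Camp after TBI, 0.13 for Lcn2 after IgG RIT, and 0.03 for both Cyba and Lyz2 after CD45 RIT. No filter gave 0.04 for Camp after TBI and 0.08 for Lcn2 after IgG RIT, DESeq2 gave 0.14 for Lcn2 after IgG RIT and 0.03 for Cyba and Lyz2 after CD45 RIT, and total counts alone gave -0.02 for S100a9 after TBI. The block gave -1.16 for Camp, -0.03 for Mmp8 and 0.74 for Cybb after IgG RIT and 1.35 for Mmp8 after TBI. With 1 library left out, changes after TBI ranged from -0.46 to 7.53 for Ltf, -0.73 to 0.53 for Camp, -0.03 to 3.95 for Ngp and -0.19 to 0.74 for S100a9. After IgG RIT they ranged from -4.62 to 8.75 for Ltf, -2.24 to 2.04 for Camp, -1.47 to 4.49 for Ngp, -1.12 to 0.42 for Lcn2, -1.15 to 1.07 for Mmp8, -6.72 to 6.65 for Mmp9 and -0.01 to 2.21 for S100a8. After CD45 RIT they ranged from -6.96 to 4.80 for Camp, -1.50 to 12.82 for Mmp9, -8.96 to 0.39 for Alox5 and -1.77 to 0.39 for Cyba, and against TBI from -0.24 to 2.00 for Cyba. Where CD45 RIT left 1 library, that library was assumed to vary like the other groups. Depth limits the genes at 0 to the floor of 3 counts.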
